A study of Homo sapiens with 54 samples.

Results

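Fatty acid synthesis, elongation and desaturation was examined through 10 genes, *FASN*, *ACACA*, *ACLY*, *ACSS2*, *SCD*, *ELOVL5*, *ELOVL6*, *ELOVL7*, *FADS1* and *FADS2*, chosen by name for their enzyme roles out of 60642 human gene symbols in the table. All 10 were measured, and all 10 passed the filter on low values described below. Expression was measured by RNA-seq in 54 tumours of LNCaP, a human prostate cancer cell line that responds to androgens, carried here as xenografts in male NOD-SCID mice, an immunodeficient strain without functional T and B cells. Each tumour grew under the skin of its own mouse from injected cells, and surgery followed at a tumour volume of about 200 mm3. PRE-CX mice (n = 9) had mock surgery and kept their testes, and their tumours were taken at 1000 mm3. All other mice were castrated. POST-CX tumours (n = 8) were taken 1 week after castration, at the lowest serum prostate-specific antigen (PSA). CRPC tumours (n = 10) were taken at relapse after castration, when PSA was back at its level before castration or the tumour had reached 1000 mm3. ENZS and ENZR mice were castrated and then given enzalutamide, an antiandrogen drug, by mouth at 10 mg/kg on 5 days a week. ENZS tumours (n = 12) were taken at the PSA low that followed the drug, while responding, and ENZR tumours (n = 15) at relapse on the drug. All groups share a single cell line and host strain, so differences between patients are not represented, and no group received enzalutamide without castration.

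Cells build long-chain fatty acids from acetyl-CoA, which ACLY makes from citrate and ACSS2 makes from acetate. ACACA carboxylates acetyl-CoA to malonyl-CoA, and FASN joins these units into palmitate. Palmitate is then lengthened by elongases of the ELOVL family, and desaturases add double bonds to fatty acids. SCD makes monounsaturated fatty acids. FADS2 and FADS1 act in turn to make polyunsaturated fatty acids, with an elongation by ELOVL5 between them. Their precursors are mainly polyunsaturated fatty acids taken up by the cell, not palmitate. In prostate cancer, lipid synthesis is known as a process that androgens stimulate, and SREBP transcription factors, encoded by *SREBF1* and *SREBF2*, drive many of its genes.

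Promoter sequence was read for members that moved together or stood apart. RefSeq on GRCh38.p14, the same major build as the study's reference, listed a start for 9 of the 10 genes, without *FASN*, and the first listed start of each was used. For *ACLY* and *ELOVL6* that start lay inside the gene's span, so their windows are not at its outer end. The window of *FADS2* lies within the span of *FADS1*. Which start each gene uses in these tumours was not tested, so a window may lie away from the promoter in use. The 4 short motifs described here were searched on both strands in the 250 bases before the start. TCACNCCAC, a sterol regulatory element, was in 0.883% of 35116 promoters and in 0 of the 9. CACGTG, an E-box, was in 6.34% of promoters and in 1 of the 9, *ELOVL5*. CCAAT, the NF-Y box, was in 32.0% of promoters and in 4 of the 9, *ACLY*, *ACSS2*, *SCD* and *ELOVL5*. GGGCGG, the SP1 box, was in 42.6% of promoters and in 7 of the 9. A match describes the letters only and is not a binding site.

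*ELOVL7* and *SCD* are shown in full, since *ELOVL7* had the largest fall among the members and *SCD* passed in none of the comparisons. For *ELOVL5*, 30-base windows around its matches are shown. Each runs 5′ to 3′ towards the gene, with motif matches in capitals (CCAAT or its reverse complement ATTGG for the NF-Y box, GGGCGG or CCGCCC for the SP1 box, CACGTG for the E-box).
ELOVL7, minus strand, chr5:60844270-60844519: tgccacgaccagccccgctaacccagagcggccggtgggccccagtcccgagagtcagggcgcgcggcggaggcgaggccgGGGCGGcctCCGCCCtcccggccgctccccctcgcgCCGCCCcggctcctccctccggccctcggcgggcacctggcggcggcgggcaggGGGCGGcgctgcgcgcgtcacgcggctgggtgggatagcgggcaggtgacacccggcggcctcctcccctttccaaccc
SCD, plus strand, chr10:100346983-100347232: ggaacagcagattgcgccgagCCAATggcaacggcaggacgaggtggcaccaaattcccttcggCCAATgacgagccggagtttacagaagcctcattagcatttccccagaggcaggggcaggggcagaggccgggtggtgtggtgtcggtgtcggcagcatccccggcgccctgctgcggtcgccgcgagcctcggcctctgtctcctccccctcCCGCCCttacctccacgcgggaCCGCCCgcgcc
ELOVL5, minus strand, E-box, chr6:53349144-53349173: atttcccagagaCACGTGgaaccgaggggc
ELOVL5, minus strand, NF-Y box, chr6:53349056-53349085: ctattgtcccgcgATTGGctcccgggccgc
ELOVL5, minus strand, NF-Y box, chr6:53349002-53349031: ccttcgggtcccgATTGGctggccgcgcca
The NF-Y and E-box matches of *ELOVL5* lie 68, 122 and 211 bases before its start.

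The values are TPM, a relative transcript abundance that allows for transcript length and sums to 1000000 over all transcripts quantified. Deposited TPM of the human symbols added up to between 12.1% and 97.5% of 1000000 per tumour, because mouse transcripts were quantified with them and then removed, so each tumour was rescaled to 1000000 (rescaled TPM). Totals under 70% were found in 2 POST-CX and 2 ENZR tumours. The lowest was ENZR mouse 87 at 12.1%, which after rescaling was still the lowest of its group in 8 of the 10 members, and the next was POST-CX mouse 91 at 27.9%, the lowest in 4. All 8 LNCaP identity markers, among them *KLK3* and *FOLH1*, were present in every group. A gene passed at a Benjamini-Hochberg adjusted p under 0.05 over 17593 genes by limma on log2(rescaled TPM + 1), and all differences below are on that log2 scale unless said otherwise. As the tissue is bulk, fewer cells of a type and less RNA per cell cannot be told apart.

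Every fit was repeated with TPM as deposited and with log2 values centred on each tumour's median. The median difference of all genes between castrated groups and PRE-CX was 0.16 for POST-CX, 0.08 for CRPC, 0.29 for ENZS and 0.25 for ENZR with rescaled values, and it lay between -0.03 and 0.00 after centring. The share of passing genes that were higher moved with it. In POST-CX it was 78.6% with rescaled values, 38.3% as deposited and 41.4% centred. The corresponding shares were 70.7%, 74.8% and 51.4% in CRPC, 77.8%, 78.7% and 48.4% in ENZS, 76.4%, 60.6% and 46.7% in ENZR, and 83.0%, 69.6% and 44.5% for ENZS against CRPC.

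As levels per length, *ELOVL5* was the most abundant of the 10 in every group, with 895 ± 364 rescaled TPM in PRE-CX (SD, n = 9). *FADS2* (270 ± 95.0), *SCD* (235 ± 62.1), *FASN* (154 ± 107), *ACLY* (151 ± 41.1) and *ACACA* (113 ± 44.8) followed in PRE-CX, and the order of neighbours among these was within their spread. *ELOVL7* (71.8 ± 33.0), *FADS1* (57.0 ± 11.9), *ACSS2* (35.7 ± 5.64) and *ELOVL6* (21.2 ± 5.21) were the least abundant there. *ELOVL7* moved from place 7 of 10 in PRE-CX to place 10 in each castrated group. Summed over the 10 genes, the level was 2003 ± 604 TPM in PRE-CX and between 1213 ± 167 (POST-CX) and 1412 ± 221 (CRPC) in the castrated groups, and *ELOVL5* made up 44.3% ± 8.54 of that sum in PRE-CX and 28.2% ± 6.79 in ENZR (n = 15).

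**Figure D1:**
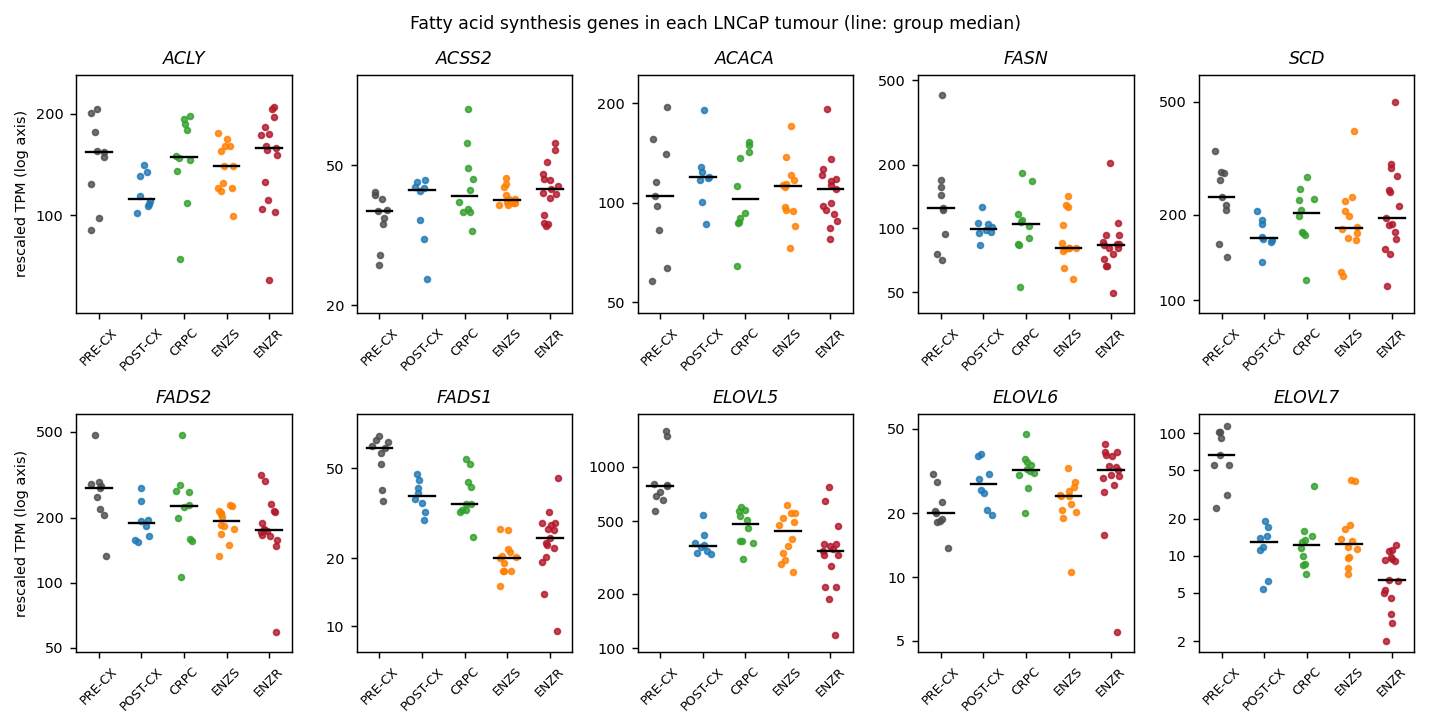
Rescaled TPM (log axis) of the 10 genes in each of the 54 tumours by group, with a line at the group median. The POST-CX and ENZR points of *ELOVL7* lie wholly below the PRE-CX points, those of *ELOVL5* in POST-CX do as well, and the groups of *ACACA* and *ACLY* overlap throughout.

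In POST-CX compared with PRE-CX, 3 of the 10 genes fell and 0 rose, against 5.62% of all genes lower and 20.6% higher. *ELOVL7*, *ELOVL5* and *FADS1* fell. The median difference of the 10 was -0.40, beside 0.16 over all genes. At relapse after castration (CRPC minus PRE-CX), *ELOVL7*, *ELOVL5* and *FADS1* were again the 3 that were lower, and *ELOVL6* was higher, against 5.87% of all genes lower and 14.2% higher. Under enzalutamide response (ENZS minus PRE-CX), 5 were lower, *FASN* and *FADS2* in addition, and 0 higher, against 13.6% of all genes lower and 47.5% higher. At relapse on enzalutamide (ENZR minus PRE-CX) 5 were lower and 1, *ACSS2*, was higher, against 13.8% lower and 44.6% higher. These 4 comparisons share their PRE-CX tumours. PRE-CX tumours were taken at 1000 mm3, whereas POST-CX tumours were taken 1 week after surgery at about 200 mm3. Castration therefore cannot be told apart from tumour size and growth time at harvest in that comparison.

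**Figure D2:**
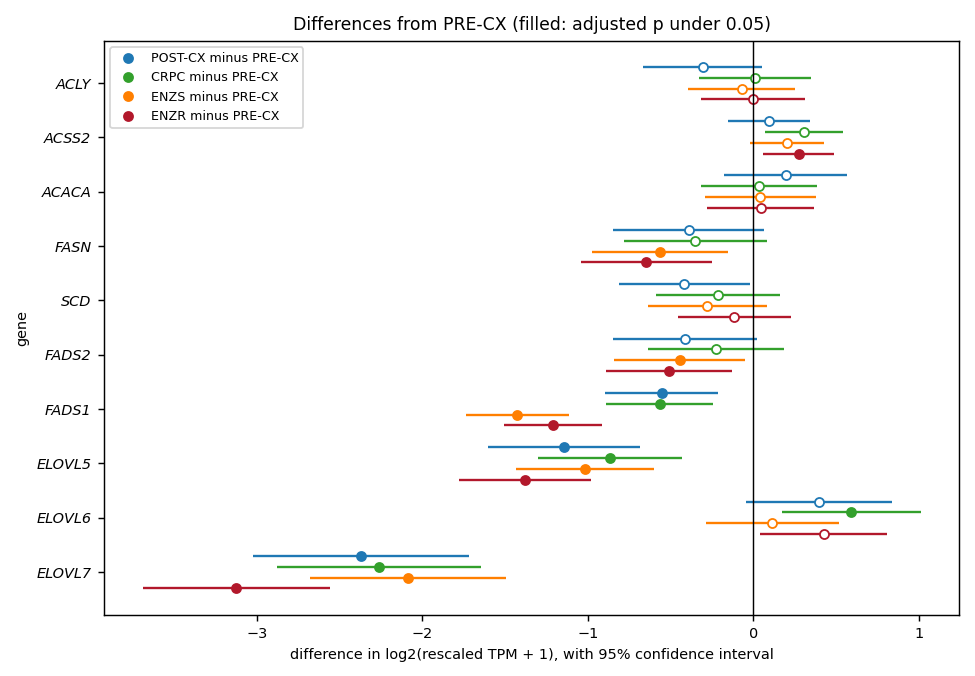
Difference of each castrated group from PRE-CX in log2(rescaled TPM + 1) for the 10 genes, with 95% confidence intervals (horizontal axis) and filled points where the adjusted p was under 0.05. *ELOVL7* lies farthest left, at -2.37, -2.26, -2.09 and -3.12 in POST-CX, CRPC, ENZS and ENZR.

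*ACLY*, the citrate-using source of acetyl-CoA, ranged from 90.4 to 206 TPM in PRE-CX with a median of 154, and its group medians elsewhere lay between 112 (POST-CX) and 158 (ENZR). It passed in no comparison. All 8 POST-CX tumours were below the PRE-CX median, and none was below the PRE-CX range. The POST-CX difference was -0.30 (95% CI -0.66 to 0.05, limma adjusted p = 0.202), and it passed only with median-centred values (-0.50, adjusted p = 0.0148), as did its difference in ENZS (-0.36, adjusted p = 0.0242, beside -0.07 and adjusted p = 0.723 rescaled).

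*ACSS2*, which makes acetyl-CoA from acetate, had a median of 37.0 TPM in PRE-CX (26.0 to 42.1) and 42.7 in ENZR (33.5 to 58.0). The groups overlapped, with 8 of 15 ENZR tumours above the PRE-CX range. The ENZR difference was 0.27 (adjusted p = 0.0249), close to the median of all genes, and it was 0.04 as deposited (adjusted p = 0.914) and 0.01 centred (adjusted p = 0.917). It was held in 22 of 24 fits that left out a tumour, and without PRE-CX mouse 111 the adjusted p was 0.0790. In CRPC the difference was 0.31 with an adjusted p of 0.0532. The 12 ENZS tumours were the most alike, between 38.4 and 46.1 TPM, and all 12 lay above the PRE-CX median, yet the difference of 0.20 did not pass (adjusted p = 0.112).

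*ACACA*, which makes malonyl-CoA, passed in no comparison. Its group medians lay between 103 TPM (CRPC) and 119 TPM (POST-CX), with 105 in PRE-CX, and all groups overlapped. The difference from PRE-CX was 0.20 in POST-CX (95% CI -0.18 to 0.57), 0.03 in CRPC (-0.32 to 0.39), 0.04 in ENZS (-0.29 to 0.38) and 0.05 in ENZR (-0.28 to 0.37), and these 4 did not pass in any of the 3 scalings. After centring, the last 3 were -0.06, -0.25 and -0.21, so their sign depended on the scaling.

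*FASN*, the synthase that makes palmitate, ranged from 71.2 to 425 TPM in PRE-CX with a median of 125. Its lowest, median and highest values were 83.4, 99.7 and 127 in POST-CX, 53.1, 105 and 183 in CRPC, 58.0, 81.1 and 142 in ENZS, and 49.9, 83.5 and 203 in ENZR. The groups overlapped throughout, and the PRE-CX maximum came from a single tumour, mouse 112, with the next at 168. *FASN* passed as lower in ENZS (-0.56, adjusted p = 0.0162), where 9 of 12 tumours were below the PRE-CX median, and in ENZR (-0.65, adjusted p = 0.00464), where 14 of 15 were. Without PRE-CX mouse 112 the ENZS difference was -0.35 and no longer passed (adjusted p = 0.0932), while that of ENZR was -0.44 (adjusted p = 0.0326). As deposited, the ENZS difference was -0.60 with an adjusted p of 0.122. The differences of POST-CX (-0.39, adjusted p = 0.197) and CRPC (-0.35, adjusted p = 0.259) did not pass.

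*SCD*, the delta-9 desaturase that makes oleate and palmitoleate, was lower in no group by the test. Its lowest, median and highest values were 142, 231 and 334 TPM in PRE-CX, 137, 166 and 207 in POST-CX, 118, 202 and 271 in CRPC, 122, 179 and 395 in ENZS, and 112, 194 and 499 in ENZR. All 8 POST-CX tumours were below the PRE-CX median and 1 was below its range. The POST-CX difference was -0.42 (95% CI -0.81 to -0.02, adjusted p = 0.111). Median-centred values gave passing differences in POST-CX (-0.61, adjusted p = 0.0204) and ENZS (-0.57, adjusted p = 0.00625), beside -0.28 with adjusted p = 0.176 for ENZS rescaled.

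*FADS2*, the delta-6 desaturase, had lowest, median and highest values of 133, 274 and 483 TPM in PRE-CX, 154, 188 and 275 in POST-CX, 106, 226 and 484 in CRPC, 132, 193 and 229 in ENZS, and 59.4, 176 and 315 in ENZR. All 12 ENZS tumours and 13 of 15 ENZR tumours were below the PRE-CX median, with 1 tumour of each below the PRE-CX range. The difference was -0.44 in ENZS (adjusted p = 0.0471) and -0.51 in ENZR (adjusted p = 0.0185). The ENZS call was held in only 9 of 21 fits that left out a tumour, and without PRE-CX mouse 112 the adjusted p was 0.145 in ENZS and 0.0696 in ENZR. As deposited, neither passed (adjusted p = 0.247 and 0.0631), and without the 4 tumours under 70% human total that of ENZR did not (-0.37, adjusted p = 0.0606).

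*FADS1*, the delta-5 desaturase that follows FADS2, fell in every castrated group, with its lowest medians under enzalutamide. Its lowest, median and highest values were 36.0, 61.3 and 69.7 TPM in PRE-CX, 29.7, 37.9 and 47.0 in POST-CX, and 24.7, 34.8 and 55.0 in CRPC. They were 15.1, 20.1 and 26.9 in ENZS and 9.55, 24.6 and 45.2 in ENZR. All 12 ENZS tumours were below the PRE-CX range and 10 of 12 were below the CRPC range, while 14 of 15 ENZR tumours were below the PRE-CX range. The difference from PRE-CX was -0.55 in POST-CX (adjusted p = 0.0135) and -0.56 in CRPC (adjusted p = 0.00931). It was -1.43 in ENZS (95% CI -1.74 to -1.12, adjusted p = 1.03e-10) and -1.21 in ENZR (95% CI -1.51 to -0.91, adjusted p = 2.88e-09). The ENZS and ENZR calls held in all 3 scalings, whereas those of POST-CX and CRPC did not pass as deposited (adjusted p = 0.117 and 0.300).

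The *FADS1* and *FADS2* genes lie on opposite strands of chromosome 11 and their RefSeq spans share 801 bases, chr11:61816203-61817003 on GRCh38.p14. The library kit keeps strand, but the strand setting used in counting is not given in the sources used here, so a split of reads at that shared end is uncertain. On this chromosome *FEN1* ends 2388 bases before the span of *FADS1* begins, and it is named below for its pattern.

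*ELOVL5*, which elongates the products of FADS2, fell in all 4 castrated groups. Its lowest, median and highest values were 568.5, 785 and 1563 TPM in PRE-CX, 332, 366 and 539 in POST-CX, and 311, 484 and 600 in CRPC. They were 264, 440 and 615 in ENZS and 118, 343 and 773 in ENZR. POST-CX did not overlap PRE-CX, and 7 of 10 CRPC, 11 of 12 ENZS and 13 of 15 ENZR tumours were below the PRE-CX range. The differences were -1.15 in POST-CX (adjusted p = 0.000226), -0.87 in CRPC (adjusted p = 0.00288), -1.02 in ENZS (adjusted p = 4.19e-05) and -1.38 in ENZR (adjusted p = 1.16e-07). All 4 held in every fit that left out a tumour, and as deposited the CRPC difference alone did not pass (-0.83, adjusted p = 0.158).

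*ELOVL6*, which lengthens palmitate to stearate, was the member elongase that passed as lower than PRE-CX in no group. Its lowest, median and highest values were 13.7, 20.1 and 30.5 TPM in PRE-CX, 19.6, 27.4 and 38.2 in POST-CX, and 20.1, 32.0 and 47.1 in CRPC. They were 10.6, 24.2 and 32.8 in ENZS and 5.52, 32.0 and 42.3 in ENZR. In CRPC, 9 of 10 tumours were above the PRE-CX median and 7 above its range, with a difference of 0.59 (adjusted p = 0.0360) that was 0.63 as deposited (adjusted p = 0.258), 0.50 centred (adjusted p = 0.0675), and passed in 8 of 19 fits that left out a tumour. In ENZR, 13 of 15 were above the PRE-CX median, and the difference of 0.43 (adjusted p = 0.0509) became 0.58 (adjusted p = 0.000540) without the 2 tumours under 50% human total, ENZR mouse 87 and POST-CX mouse 91. In that same fit the POST-CX difference of 0.40 (adjusted p = 0.175) became 0.46 (adjusted p = 0.0389).

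*ELOVL7*, an elongase of long-chain acyl-CoA, had the largest fall of the 10 in each of the 4 groups. Its lowest, median and highest values were 24.6, 67.0 and 115 TPM in PRE-CX, 5.38, 12.9 and 19.3 in POST-CX, and 7.17, 12.3 and 37.1 in CRPC. They were 7.10, 12.5 and 41.5 in ENZS and 2.03, 6.31 and 12.2 in ENZR. POST-CX and ENZR did not overlap PRE-CX, while 1 of 10 CRPC and 2 of 12 ENZS tumours reached into its range. The level was 0.193 of that in PRE-CX in POST-CX tumours (adjusted p = 3.98e-07), 0.208 in CRPC (adjusted p = 2.32e-07), 0.235 in ENZS (adjusted p = 4.52e-08) and 0.115 in ENZR (adjusted p = 6.01e-13), on the TPM + 1 scale. All 4 differences passed in every alternative.

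The relapse steps were compared next, each as the relapsed tumours minus the responding ones. From POST-CX to CRPC, 0 of the 10 genes passed by limma in either direction, against 0.00568% of all genes higher and 0.0568% lower, and 0 of the 10 had an unadjusted p under 0.05. The median of the 10 was 0.19, beside -0.07 over all genes. From ENZS to ENZR, 0 of the 10 passed and also 0% of all genes higher and 0% lower, with 1752 genes and 1 member, *ELOVL7*, at an unadjusted p under 0.05. All 15 ENZR tumours were below the ENZS median of *ELOVL7* and 8 were below its range, with a difference of -1.04 (95% CI -1.56 to -0.52, adjusted p = 0.225). The difference between the steps, with 0.0966% of all genes higher and 0.102% lower, passed for 0 of the 10. It was -1.15 for *ELOVL7* (adjusted p = 0.193) and -0.64 for *ELOVL5* (adjusted p = 0.314), the 2 members with an unadjusted p under 0.05.

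Among castrated mice, ENZS against CRPC compared responding tumours on enzalutamide with relapsed tumours not given it, so drug and stage cannot be told apart. *FADS1* and *ELOVL6* fell and 0 rose, against 6.41% of all genes lower and 31.4% higher. *FADS1* differed by -0.86 (95% CI -1.16 to -0.56, adjusted p = 3.52e-05) and held in every fit and scaling. *ELOVL6* differed by -0.48 (adjusted p = 0.0466), with 11 of 12 ENZS tumours below the CRPC median, and passed in 7 of 22 fits that left out a tumour. *ACSS2* passed there with centred values alone (-0.31, adjusted p = 0.0265, beside -0.10 and adjusted p = 0.452 rescaled).

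**Figure D3:**
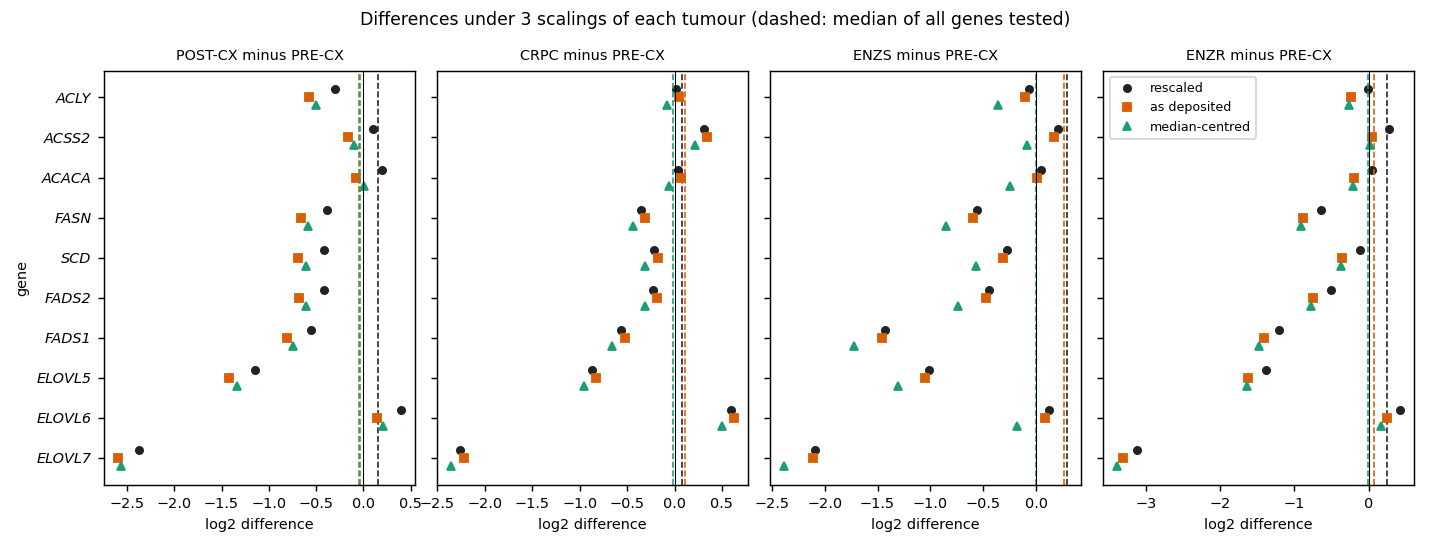
Log2 difference of the 10 genes from PRE-CX in 4 panels, 1 for each castrated group, with rescaled, deposited and median-centred values as different symbols and dashed lines at the median of all genes tested. *ELOVL7*, *ELOVL5*, *FADS1*, *FASN*, *SCD* and *FADS2* stay left of 0 in all 3 scalings, whereas *ACACA*, *ACSS2*, *ACLY* and *ELOVL6* change side in some panels.

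Ratios of a pair of members within a tumour are nearly free of its scaling, and 5 were tested in 7 comparisons by two-sided permutation tests over tumours, exact where a group had under 10 tumours, with p-values adjusted over the 35. *FADS2* relative to *FADS1* was 4.69 ± 1.04 in PRE-CX (SD, TPM ratio, n = 9), 5.16 ± 0.959 in POST-CX and 6.05 ± 1.65 in CRPC. It reached 9.60 ± 2.13 in the 12 ENZS tumours and 7.81 ± 1.63 in the 15 ENZR tumours. The ratio rose under enzalutamide, with all 12 ENZS and all 15 ENZR tumours above the PRE-CX median. On the log2 scale it rose by 0.98 in ENZS and 0.70 in ENZR (exact permutation test, adjusted p = 0.000238 for both) and by 0.64 from CRPC to ENZS (permutation test, adjusted p = 0.00441). In CRPC against PRE-CX the difference of 0.34 did not pass (exact permutation test, adjusted p = 0.0916).

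*ELOVL6* relative to *ELOVL5* separated PRE-CX from each castrated group without overlap. The mean TPM ratio was 0.0257 ± 0.00764 in PRE-CX, 0.0748 ± 0.0218 in POST-CX, 0.0722 ± 0.0248 in CRPC, 0.0569 ± 0.0198 in ENZS and 0.0946 ± 0.0433 in ENZR. All 45 tumours of castrated mice lay above the highest PRE-CX ratio, 0.0356, the lowest of them at 0.0365. The log2 differences were 1.54, 1.46, 1.13 and 1.80 in POST-CX, CRPC, ENZS and ENZR, and each exact permutation test gave the smallest p its design allows (adjusted p = 0.000480, 0.000238, 0.000119 and 5.35e-05). From ENZS to ENZR the ratio rose by 0.67 (permutation test, adjusted p = 0.0181), with 13 of 15 ENZR tumours above the ENZS median, a step in which neither gene passed on its own.

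*ELOVL7* fell more than *ELOVL5*. Their log2 ratio fell by 1.23 in POST-CX, by 1.39 in CRPC and by 1.75 in ENZR (exact permutation test, adjusted p = 0.0394, 0.0231 and 0.00441), and without POST-CX mouse 91, the tumour under 50% human total, the POST-CX difference of -1.24 did not pass (exact permutation test, adjusted p = 0.0537), while in ENZS it was lower by a log2 difference of -1.07 that did not pass (exact permutation test, adjusted p = 0.0633). *SCD* relative to *FASN* passed against PRE-CX in ENZR alone, rising from a TPM ratio of 1.84 ± 0.680 to 2.55 ± 0.570 (log2 difference 0.53, exact permutation test, adjusted p = 0.0181), with 15 of 15 tumours above the PRE-CX median. PRE-CX mouse 112, with outlying *FASN*, had the lowest log2 ratio of its group (-0.59), and the ratio was not tested without it. *ACSS2* relative to *ACLY* passed against PRE-CX in POST-CX alone, rising from 0.248 ± 0.0604 to 0.327 ± 0.0658 (log2 difference 0.40, exact permutation test, adjusted p = 0.0425). Whether these changes differed between castrated groups was tested only for CRPC against POST-CX, ENZS against CRPC and ENZR against ENZS, where neither ratio passed.

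**Figure D4:**
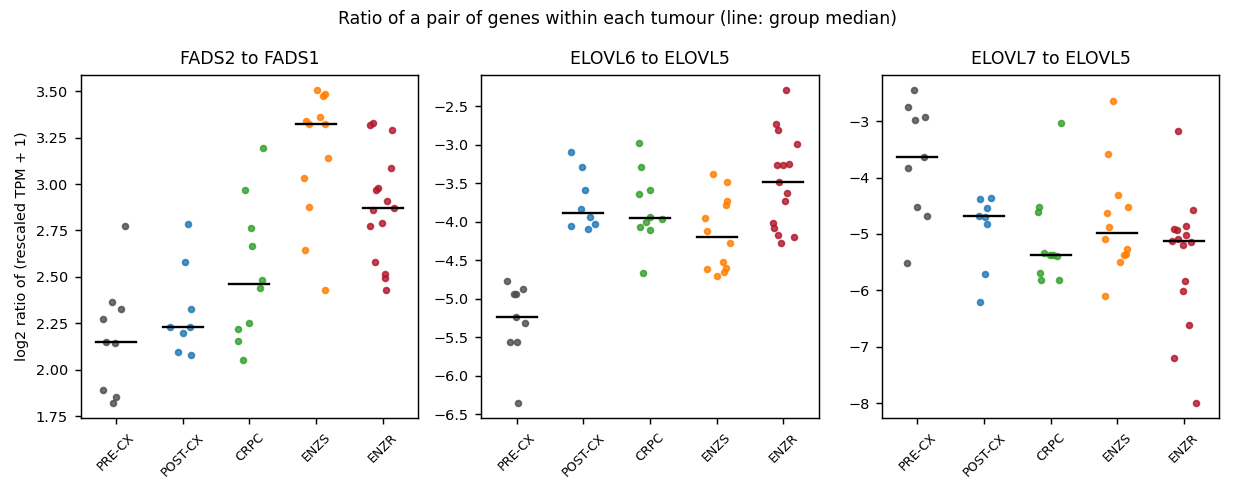
Log2 ratio of rescaled TPM + 1 of *FADS2* to *FADS1*, *ELOVL6* to *ELOVL5* and *ELOVL7* to *ELOVL5* in each tumour by group, with a line at the group median. The PRE-CX points of *ELOVL6* to *ELOVL5* lie below every other group, and those of *FADS2* to *FADS1* are highest in ENZS.

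Relations across tumours were computed within each group for *FASN* against *SREBF1*, *KLK3* (which encodes PSA) and *SCD*, 15 in all, on log2(rescaled TPM + 1) with permutation p-values adjusted over the 15. *FASN* rose with *SREBF1* in PRE-CX (n = 9, r = 0.82, exact permutation test, adjusted p = 0.0203, rho = 0.88, adjusted p = 0.0231). It did so also in CRPC (n = 10, r = 0.86, permutation test, adjusted p = 0.00697, rho = 0.92, adjusted p = 0.00660). Without the 2 tumours farthest from the median of *SREBF1*, r was 0.86 in PRE-CX and 0.67 in CRPC. In ENZR r was 0.62 and rho 0.66 (n = 15, permutation test, adjusted p = 0.0860 and 0.0484), in ENZS 0.54 and 0.57 (n = 12, adjusted p = 0.135 and 0.148 by permutation), and in POST-CX r was 0.00 and rho -0.26 (n = 8, exact permutation test, adjusted p = 0.995 and 0.671). The difference between these correlations was not tested.

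*FASN* and *KLK3* gave no passing relation, with r between -0.42 in ENZS and 0.59 in ENZR. *FASN* and *SCD* passed by r in ENZR (n = 15, r = 0.82, permutation test, adjusted p = 0.00570), but rho was 0.63 with an adjusted p of 0.0550 by permutation, and r was 0.41 without the 2 farthest tumours, so the relation rested on those. In the other groups r of *FASN* and *SCD* lay between -0.34 (ENZS) and 0.65 (CRPC), and none passed.

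**Figure D5:**
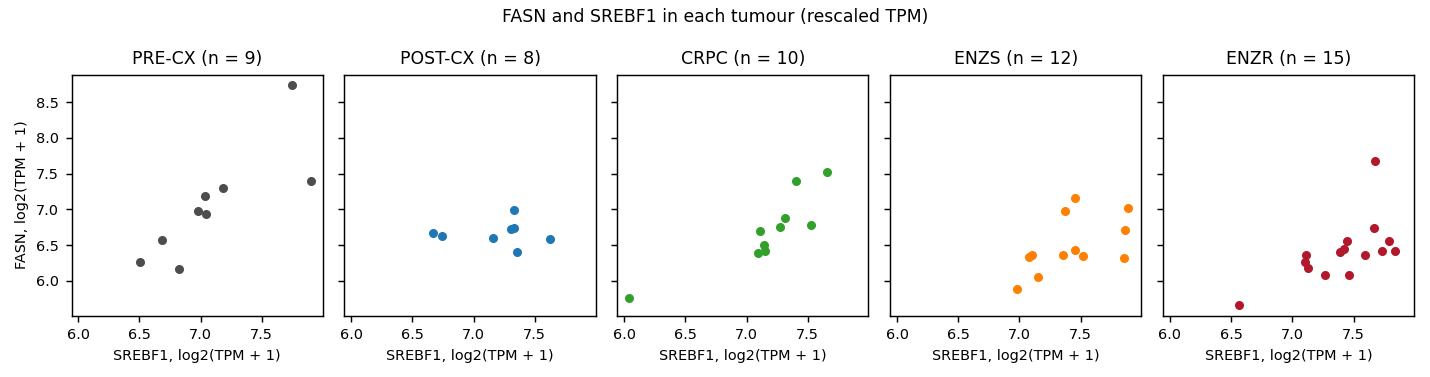
*FASN* (vertical) against *SREBF1* (horizontal), both log2(rescaled TPM + 1), 1 point per tumour and 1 panel per group. The points rise together in PRE-CX (r = 0.82) and CRPC (r = 0.86), while in POST-CX the *FASN* values stay within a narrow band at all *SREBF1* levels (r = 0.00).

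Patterns over all 54 tumours were described by Pearson's r of log2(rescaled TPM + 1), with no test, since the groups themselves differ. Among the members, *FASN* and *FADS2* were most alike (r = 0.72), followed by *FADS1* with *FADS2* (0.65) and with *FASN* (0.64). With each group's mean removed, the closest pair was *FADS1* and *FADS2* (0.73), then *FADS1* and *SCD* (0.71), and *FASN* with *FADS2* and with *ACACA* (0.67 each). *ELOVL7* was apart from the others by this measure, its r within groups lying between -0.35 with *ELOVL5* and 0.23 with *ACSS2*, although both elongases fell between groups. Outside the members, *FADS1* was closest to *CCNB1* (cyclin B1, r = 0.91), *FEN1* (flap endonuclease, 0.91) and *ERCC6L* (0.91), a closer match than any other member had. *FASN* was closest to *PCYT2* (0.77), *U2AF2* (0.73) and *SREBF2* (0.70), and *FADS2* to *DHCR7*, a cholesterol synthesis enzyme, and *SREBF2* (both 0.74) and *RFC2* (0.69). *ELOVL7* was closest to *MAF* (0.88), *FAM174B* (0.87) and *TSKU* (0.85), and *ELOVL5* to *TRGC1* (0.81), *TMEM121B* (0.79) and *PEX10* (0.79). *SCD* was closest to *HMGCS1* (0.67), *ZBTB24* (0.64) and *HNRNPH2* (0.63), *ACLY* to *WASF2* (0.75), *GYS1* (0.74) and *MYO1D* (0.70), and *ACACA* to *NUP153* (0.70), *UBA1* (0.70) and *WNK1* (0.69). The nearest for *ACSS2* were *PITPNA* (0.67), *CSTF2* (0.63) and *ETV3* (0.61), and for *ELOVL6* they were *SP2-AS1* (0.71), *MAPKAPK3* (0.64) and *LINC01534* (0.63).

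Of 17 regulators of lipid synthesis, 4 rose and 3 fell in POST-CX, 1 and 1 in CRPC, 8 and 3 in ENZS, and 8 and 3 in ENZR, all against PRE-CX. Over all genes tested, 20.6%, 14.2%, 47.5% and 44.6% were higher and 5.62%, 5.87%, 13.6% and 13.8% lower in POST-CX, CRPC, ENZS and ENZR, and the counts of this list and of those that follow are to be read against these shares. The regulator counts depended on the scaling. As deposited, 0, 0, 4 and 1 rose and 1, 0, 1 and 3 fell, and after centring 1, 1, 4 and 5 rose and 4, 3, 6 and 5 fell. *SREBF1* passed in no comparison and had group means between 143 and 174 TPM. *SREBF2* fell from 55.1 TPM to 38.1 in POST-CX (-0.50, adjusted p = 0.0476), 35.0 in ENZS (-0.63, adjusted p = 0.00179) and 39.0 in ENZR (-0.53, adjusted p = 0.00589), and its CRPC difference was -0.28 (adjusted p = 0.293). As deposited, that of ENZR alone passed (-0.75, adjusted p = 0.0310). *INSIG1*, itself an SREBP target that holds SREBP back, fell in POST-CX (-0.78, adjusted p = 0.00422), ENZS (-0.61, adjusted p = 0.00448) and ENZR (-0.61, adjusted p = 0.00327), although as deposited that of ENZS did not pass (-0.64, adjusted p = 0.0674). Among the regulators that rose, *PRKAA1* passed in POST-CX, CRPC, ENZS and ENZR (0.75, 0.64, 0.76 and 0.98), and as deposited in ENZS and ENZR alone. *MLXIPL*, which encodes the glucose-responsive factor ChREBP, was low, at 1.33 TPM in PRE-CX and 2.98 in ENZS (0.73, adjusted p = 0.000563).

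Other fatty acid genes moved in both directions, and the balance of the directions depended on the scaling. Of 9 tested cytosolic partners of synthesis, 3, 2, 5 and 5 rose and 0, 0, 1 and 0 fell in POST-CX, CRPC, ENZS and ENZR. As deposited, 0, 1, 2 and 1 of them rose and 0 fell in each group, and after centring 2 rose in each group and 1, 0, 2 and 2 fell. *MID1IP1*, which promotes ACACA polymerisation, rose in all 4, by 0.55, 0.61, 0.66 and 0.55, and as deposited it passed in ENZS alone. Of 12 tested partners of elongation and desaturation, 0, 2, 6 and 7 rose and 1, 0, 1 and 1 fell. As deposited, 0, 1, 4 and 2 rose and 0, 0, 0 and 1 fell, and after centring 0, 2, 4 and 3 rose and 3, 1, 3 and 3 fell. *HSD17B12*, the ketoacyl-CoA reductase of the elongation cycle, rose from 63.7 TPM to 109 in CRPC, 154 in ENZS and 141 in ENZR (0.79, 1.21 and 1.11), and *SCD5*, another delta-9 desaturase, at 5.79 TPM in PRE-CX, rose in ENZS (2.34, adjusted p = 8.07e-07) and, to 21.3 TPM, in ENZR (1.61, adjusted p = 0.000187). Both genes passed in these groups in all 3 scalings. *ELOVL1* fell in POST-CX (-0.56, adjusted p = 0.000602), a difference that did not pass as deposited (-0.83, adjusted p = 0.0768). Of 9 genes of the separate mitochondrial fatty acid synthesis, 1, 2, 2 and 2 rose and 1, 1, 3 and 2 fell. As deposited, 0, 0, 1 and 0 rose and 1, 0, 0 and 1 fell, whereas after centring 0, 2, 1 and 1 rose and 3, 1, 7 and 6 fell. *OXSM*, its ketoacyl synthase, was lower in all 4 groups (-0.47, -0.33, -0.43 and -0.31), but as deposited it did not pass in CRPC (adjusted p = 0.504) or ENZS (adjusted p = 0.0608).

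Downstream of synthesis, 8, 2, 11 and 9 of 19 tested genes of fatty acid activation and storage rose and 1, 2, 2 and 2 fell in the 4 groups. As deposited, 2, 2, 7 and 3 rose and 1, 1, 1 and 2 fell, and after centring 4, 2, 8 and 8 rose and 4, 3, 3 and 4 fell. *ACSL3*, a long-chain acyl-CoA synthetase, fell from 376 TPM to 104 in POST-CX, 116 in CRPC and 118 in ENZR (-1.76, -1.60 and -1.62, adjusted p = 2.39e-10, 6.03e-10 and 6.21e-12). *ACSL5* rose in POST-CX, ENZS and ENZR (1.39, 1.46 and 1.76), and *ACSL6* rose in ENZS and ENZR (1.83 and 1.41). These 3 genes are named only for groups where the naming rule given below picked them, so an unnamed group need not mean no change. Of 9 tested genes of uptake and binding, 1, 1, 2 and 2 rose and 3, 2, 4 and 4 fell, among them *VLDLR*, from 29.9 to 10.4 TPM in POST-CX (-1.41, adjusted p = 3.50e-07). These counts were 0, 1, 1 and 1 higher and 2, 1, 3 and 4 lower as deposited, and 0, 1, 1 and 2 higher and 4, 2, 4 and 5 lower after centring. Of 25 tested genes of fatty acid oxidation, 4, 4, 10 and 8 rose and 0, 0, 2 and 3 fell. As deposited, 0, 1, 2 and 2 rose and 0, 0, 0 and 2 fell, and after centring more fell than rose in every group, with 2, 4, 3 and 5 higher and 5, 5, 10 and 8 lower. *HADHB*, the thiolase subunit of the mitochondrial trifunctional protein, rose in all 4 (0.73, 0.77, 1.06 and 1.08), although as deposited that of POST-CX did not pass (adjusted p = 0.366).

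Of 8 androgen-induced genes, 7, 4, 7 and 7 fell and 0 rose, with *FKBP5* at differences of -2.40, -2.32, -2.89 and -3.24. As deposited, 5, 2, 6 and 7 of them fell, after centring 8, 4, 7 and 7, and 0 rose in either. Of 8 LNCaP identity markers, 2, 2, 3 and 2 rose and 5, 3, 3 and 5 fell. As deposited, 1, 2, 2 and 2 rose and 2, 0, 2 and 4 fell, and after centring 2 rose in each group and 5, 3, 5 and 5 fell. Human transcripts of markers of other cell types were low. Host cells are mouse and the values cover human symbols only, so these levels do not measure host cells. Of 8 fat cell markers 2 were tested, which passed as higher in ENZS and ENZR (in ENZR, 1 as deposited and 1 after centring), and the summed level of the 8 had a median of 2.53 TPM in PRE-CX (1.55 to 5.78) and 6.12 in ENZS (3.95 to 13.8). The summed level of 10 stroma, vessel and blood markers had a median of 13.7 TPM in PRE-CX (5.62 to 20.1), 20.5 in POST-CX (10.3 to 30.8), 25.0 in CRPC (9.97 to 99.7), 43.3 in ENZS (18.1 to 271) and 56.0 in ENZR (12.2 to 81.8). Of its 5 tested genes, 1, 3, 3 and 3 rose and 0, 2, 1 and 1 fell, with *LUM* higher by 3.04 in ENZS. How these human transcripts arose was not tested, nor was any relation to the differences of the 10 genes.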

How the data were processed

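RNA-seq was performed on 54 LNCaP xenograft tumours, each from its own mouse, which the labels place in 5 groups. According to the study's methods and processing notes, the authors prepared stranded libraries of polyadenylated RNA, and the tools named are FastQC (0.11.9), Trim Galore (0.6.5), STAR (2.7.2b) and RSEM (1.3.3), with a combined human GRCh38 and mouse GRCm38 reference. The TPM deposited by the authors cover human symbols only. TPM hold no read depth, so the precision of a value rests on the spread between tumours, and the human total per tumour, from 12.1% to 97.5%, was the measure of quality available.

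Each tumour's TPM were divided by their human total and multiplied by 1000000. The 17593 of 60642 symbols that reached 1 TPM in 8 tumours or more were tested on log2(TPM + 1), a scale that understates changes of low genes, with limma (3.58.1, R 4.3.3, trend, 5 group means over all 54 tumours) and Benjamini-Hochberg adjustment within each comparison. The fit was checked on simulated data. Ratios and relations were tested by permutation (scipy 1.17.1, two-sided, 100000 resamples where no group had under 10 tumours). All 10 members are named in every comparison. From 11 further gene lists, counts are given, and examples are passing genes among the 3 largest differences per comparison with a mean of at least 5 TPM, plus *SREBF1*, *SREBF2*, *INSIG1* and *MLXIPL*. A further motif that was searched is not reported here. The members and lists were chosen with earlier results of these data known. Alternatives were deposited TPM, median-centred values, a pseudocount of 0.1, no filter, no tumours under 50% human total, the compared groups alone, robust empirical Bayes and leaving out each tumour. Leaving out tumours under 70% was added after seeing the data.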

Additional observations from a re-analysis of the deposited data

Results flagged for a closer look

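In groups of 10 or fewer tumours, a single tumour's gap to its neighbour was set against the group's range by Dixon's 95% criterion. Of 30 tests (10 genes in PRE-CX, POST-CX and CRPC), 6 passed, all as the highest of their group. About 1 in 20 would pass by chance for independent, normally distributed values. The gaps were taken on TPM rather than log values, and the same tumours recur, so that rate need not hold here. PRE-CX mouse 112 stood apart as the highest in *FASN*, at 424.8 TPM with the next at 168.3 and a median of 125, and in *FADS2*, at 482.9 with the next at 291.6. Since this tumour is a control, it enters the comparisons of all castrated groups, and the calls of *FASN* in ENZS and of *FADS2* in ENZS and ENZR did not hold without it. CRPC mouse 81 stood apart as the highest in *FADS2*, at 484.3 TPM (next 282.5), and in *ELOVL7*, at 37.1 TPM (next 16.0). POST-CX mouse 99 stood apart as the highest in *ACACA*, at 191.4 TPM (next 128.7), and in *ELOVL5*, at 538.9 TPM (next 421.4), where it still lay below every PRE-CX tumour.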

How the results depend on the processing

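The number of the 10 genes that passed depended on scaling. With median-centred values it was 6 in place of 3 for POST-CX and 3 in place of 4 for CRPC against PRE-CX. It was then 7 in place of 5 for ENZS and 5 in place of 6 for ENZR against PRE-CX, and 3 in place of 2 for ENZS against CRPC. As deposited it was 2 in place of 3 for POST-CX and 1 in place of 4 for CRPC against PRE-CX. For ENZS and ENZR against PRE-CX it was 3 in place of 5 and 4 in place of 6, and for ENZS against CRPC it was 1 in place of 2. That last count was also 1 with a pseudocount of 0.1 and 1 with no filter on low values. Leaving out each tumour in turn gave 3 to 3 genes for POST-CX, 3 to 5 for CRPC, 3 to 5 for ENZS and 5 to 7 for ENZR against PRE-CX, 1 to 2 for ENZS against CRPC, and 0 to 0 for both relapse steps and for their difference. Of the 80 gene-by-comparison results, 71 kept their side of the threshold as deposited, where 9 lost their call, and 72 did so when centred, where 6 gained and 2 lost it. Without the 2 tumours under 50% human total 77 did and 3 gained a call, and with the robust option all 80 did. No called difference changed sign. Of the 35 ratio results, all kept their call as deposited and with a pseudocount of 0.1, and 1 lost it without the tumours under 50%. A ratio within a tumour hardly depends on its scaling, so the deposited values were hardly a separate check of the ratios. No paired analysis was possible because no mouse number is shared between groups. TPM hold no read depth, so counting error could not be separated from the spread between tumours.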

Other observations

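Single tumours took the extreme of their group in many of the 10 genes at once. ENZR mouse 75 had the highest value of its group in 6 genes, *FASN*, *ACACA*, *SCD*, *FADS1*, *FADS2* and *ELOVL5*, with 203 TPM of *FASN* (next 106) and 499 TPM of *SCD* (next 301), and the lowest *ELOVL7* value of the series, 2.03 TPM. PRE-CX mouse 112 was likewise highest in 6 genes, *FASN*, *ACACA*, *ACSS2*, *FADS1*, *FADS2* and *ELOVL5*. CRPC mouse 47 was lowest in 7 genes, *FASN*, *ACACA*, *ACLY*, *ACSS2*, *SCD*, *FADS1* and *FADS2*, with 53.1 TPM of *FASN* and 74.2 TPM of *ACLY*. Human totals of these 3 tumours were 94.9%, 93.5% and 89.4%, unlike ENZR mouse 87, the lowest of its group in 8 genes, whose human total was 12.1%. These tumours were singled out after their values were seen, and no comparison was made with them as groups.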
